A study of Mus musculus with 27 samples.

Results

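Gene expression in the fetal brain of AKR/J mice on gestational d15 was compared with that of Cav1-null mice on d12. These are 6 of the 27 libraries of the series, 3 per group, and the pair was selected on the measured number of differentially expressed (DE) genes, which was low between these 2 groups of different labelled day. AKR/J is an inbred short-lived strain with intact Cav1. Cav1-null is the congenic strain B6.Cg-Cav1tm1Mls/J, also short-lived, which carries a null allele of Cav1 in every cell on a C57BL/6J-derived background. The labels name no treatment, every fetus was labelled female, and pregnancies of mice about 8 weeks old were timed from the vaginal plug, with the day of the plug as day 1. Each library was made from polyadenylated RNA of a whole brain. The labels do not say which fetuses shared a litter, so that p-values measure only the spread between these samples, which may be technical. The AKR/J d17 against Cav1-null d15 comparison, which shares no library with the pair, set the same strains side by side, again with AKR/J on the later labelled day. C57BL/6J mice, with intact Cav1 and no allele named in the labels, gave the direction of normal change from d12 to d17.

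During this window of gestation, dividing progenitors of the brain give way to neurons, which begin to make synapses, and to the first glial cells. Cell cycle genes therefore fall and synaptic genes rise in whole brain as a fetus ages. In the blood inside the tissue, embryonic globins of primitive red cells are replaced by adult globins. Inbred strains differ in addition by alleles that raise, lower or remove single transcripts at every age. Processed pseudogenes are copies of an mRNA that were inserted into the genome.

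Cav1 served as a check of strain. It encodes the main coat protein of caveolae and lies on chromosome 6 from 17306140 to 17341451 (GRCm39). The AKR/J d15 libraries held 755, 1118 and 476 Cav1 reads, and the Cav1-null d12 libraries 2, 0 and 8. The label of fetal sex was not borne out in 2 of the 6 libraries. Xist, the RNA of the inactive X chromosome, had 161988 and 168139 reads in AKR/J d15 samples 1 and 2 but 103 in sample 3, in which the Y-linked genes Ddx3y, Eif2s3y, Kdm5d and Uty also had 0 reads. In Cav1-null d12, Xist had 126312 and 147356 reads in samples 1 and 3 but 121 in sample 2, which held 3439 reads of Ddx3y and 4575 of Eif2s3y.

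The 6 libraries held 28025320 to 33795422 reads on genes. AKR/J d15 sample 2 and Cav1-null d12 sample 3 stood apart from the other libraries of their groups. The summed expression of 18 marker genes of connective tissue and cartilage was 2090 counts per 1000000 reads on genes (CPM) in the first and 1795 CPM in the second, against 293 to 483 CPM in the other 4 libraries. The collagen gene Col1a1 reached 272 CPM in AKR/J d15 sample 2 and 190 CPM in Cav1-null d12 sample 3, and 8.11 to 11.8 CPM elsewhere in the pair. The eye lens gene Cryba1 was at 114 CPM in AKR/J d15 sample 2 alone and at 0.133 to 0.785 CPM in the other 5. Cav1-null d12 sample 3 was also low in some neuronal genes. The summed expression of 19 genes of GABAergic neurons was 1520, 1467 and 774 CPM in the 3 Cav1-null d12 libraries, while that of 25 genes of neurons and cortical layers was 6588, 7184 and 6083 CPM and that of 40 synaptic genes 3428, 3558 and 3476 CPM. Tbr1, of early cortical neurons, was at 85.7, 64.8 and 8.61 CPM in the 3 Cav1-null d12 libraries, and Dlx1, of GABAergic neuron precursors, at 297, 290 and 63 CPM. En2, of the midbrain and hindbrain, went the other way with 12.1, 9.68 and 47.2 CPM. These genes were named after their values were seen. None of the 17 connective tissue genes tested was DE in the pair. Counts of DE genes are therefore also given without the libraries concerned.

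Of 19890 genes tested with edgeR's quasi-likelihood test, 835 were DE at an adjusted p under 0.05, which is 4.2% of the genes. Of these, 465 were higher (2.34%) and 370 lower (1.86%) in AKR/J d15. Because the pair was chosen for this count, it is given as a description. It was the lowest count among the 9 pairings of an AKR/J with a Cav1-null group, the next being 2516 for d17 in both strains and 2983 for AKR/J d17 against Cav1-null d15. Just inside the threshold were Rsph3b and Gm35850, with log2 fold changes of 0.83 and -0.98, and just outside it Arhgap44 and Scarb1, with 0.58 and 0.63. The differences themselves were not the smallest. Over genes with a log2 CPM of at least 3, the median absolute log2 fold change was 0.18 in the pair, 0.15 for d17 in both strains and 0.13 for AKR/J d17 against Cav1-null d15. The spread between libraries was wider in the pair, with a biological coefficient of variation of 27.6% against 12.3% and 11.5% in those comparisons. In a single model of all 27 libraries, in which every group shares an estimate of the spread, the pair had 863 DE genes and came after these comparisons, with 639 and 674.

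The count depended on which libraries were in it. Without Cav1-null d12 sample 3, 2033 genes were DE, and without any other single library 267 to 534. Leaving out both libraries that were high in connective tissue genes gave 2592 DE genes from 2 libraries per group. Leaving out both libraries that went against the sex label gave 117, again from 2 libraries per group, and these include the ones high in connective tissue genes. These omissions were chosen after the data were seen.

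**Figure D1:**
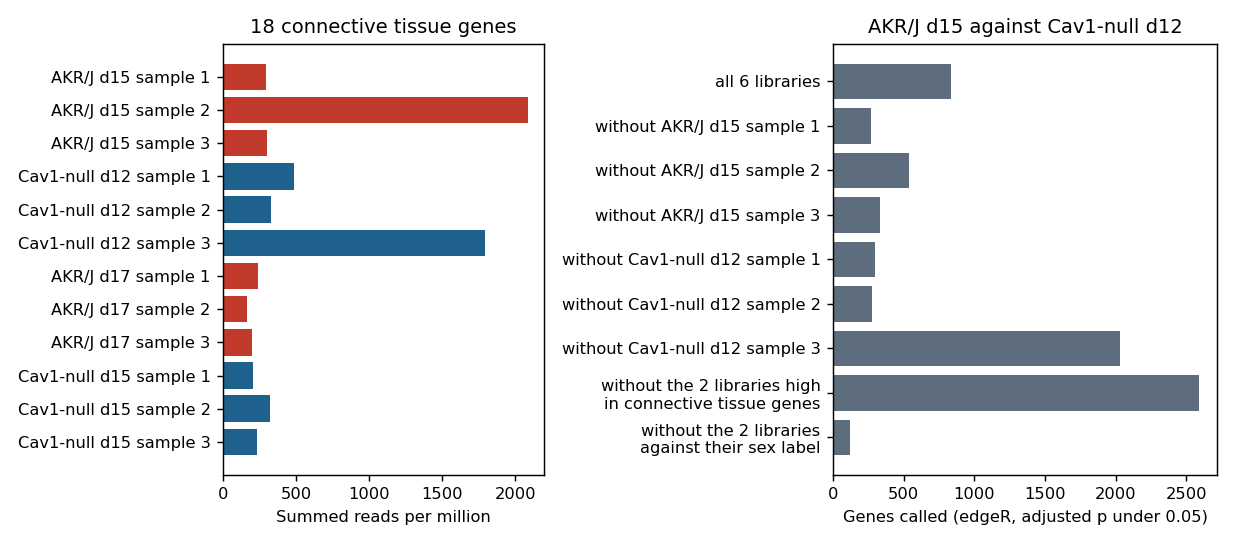
The left panel plots the summed expression of 18 connective tissue and cartilage genes (CPM) in each of 12 libraries, and the right panel the number of DE genes between AKR/J d15 and Cav1-null d12 with libraries left out. AKR/J d15 sample 2 and Cav1-null d12 sample 3 are at 2090 and 1795 CPM, and the count moves from 835 with all 6 libraries to 2592 without these 2 and to 117 without the 2 libraries against their sex label.

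The pair was taken as similar in stage, and the data went partly against this. Each library was placed on a line from the mean of C57BL/6J d12, at 0, to that of C57BL/6J d17, at 1, over 3750 genes that were DE between these groups by at least 1 on the log2 scale. The AKR/J d15 libraries lay at 0.401, 0.394 and 0.371 and the Cav1-null d12 libraries at 0.098, 0.111 and 0.264. The groups did not overlap, and the AKR/J d15 mean (0.389 ± 0.016, SD, n = 3) was later than that of Cav1-null d12 (0.158 ± 0.092) by 0.231. Cav1-null d12 sample 3 was the latest of its group, and without it the gap was 0.284. Cav1-null d15 lay at 0.684 ± 0.0076, so that AKR/J d15 fell between Cav1-null d12 and d15. Which of these was nearer depended on the scale. With C57BL/6J d15 in place of d17 as the late end, the gap to Cav1-null d12 widened to 0.449 and AKR/J d15 was nearer to Cav1-null d15, while with d17 it was nearer to Cav1-null d12. AKR/J d17 (0.864 ± 0.066) was likewise between Cav1-null d15 and d17 (1.03 ± 0.009). The positions of C57BL/6J d12 themselves ranged from -0.171 to 0.0999, and the scale is no more precise than this.

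**Figure D2:**
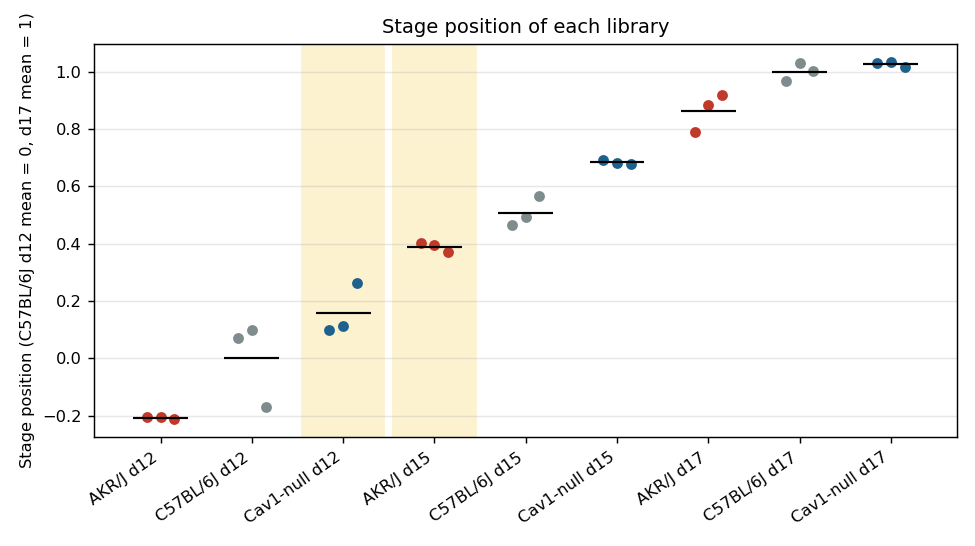
The stage position of each of the 27 libraries is plotted by group on a scale without units, where the mean of C57BL/6J d12 is 0 and that of C57BL/6J d17 is 1; points are libraries, lines are group means, and the shaded columns hold the compared pair. The AKR/J d15 libraries sit between 0.371 and 0.401, above the Cav1-null d12 libraries at 0.098 to 0.264 and below those of Cav1-null d15.

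Some genes of cell division were lower in AKR/J d15. In a list of 37 cell cycle genes, 4 were DE and lower, against 1.86% of all genes, and none was higher, the median log2 fold change was -0.62 against 0.02 over all genes tested, and in 23 of the 37 (62.2%) the libraries of the groups did not overlap, against 28.2% of all genes. Kif11, a motor of the mitotic spindle, was at 89, 93.9 and 88.3 CPM in AKR/J d15 and at 236, 220 and 128 CPM in Cav1-null d12 (log2 fold change -1.16 ± 0.23, SE). Pcna, the clamp of DNA polymerase, was at 129, 113 and 112 CPM against 288, 347 and 186 CPM. It is the source gene of a pseudogene with more reads in AKR/J, Pcna-ps2, and the log2 ratio of mean CPM was -1.21 for Pcna alone and -1.03 for both together. In both genes Cav1-null d12 sample 3 was the lowest of its group and nearest to AKR/J d15. The helicase genes Mcm6 and Gins2 were lower by log2 fold changes of -0.73 ± 0.13 and -0.84 ± 0.16. Without the libraries high in connective tissue genes 32 of the 37 were DE, all lower, when 1182 of 19724 genes were lower in all. Without Cav1-null d12 sample 3 alone 31 were lower, when 1017 of 20461 were in all. Without the libraries against the sex label the count was 0 of 37, with a median of -0.56, when 34 of 20531 were lower in all. In AKR/J d17 against Cav1-null d15, where edgeR called 14.8% of all genes and 6.33% as lower, 28 of the 37 were lower and 0 higher, with a median of -0.59. Kif11 was lower there by -1.26 ± 0.18 (adjusted p = 0.000545) and Pcna by -0.81 ± 0.08 (adjusted p = 2.43e-05).

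Developmental timing genes had 2 DE members of 18, both lower, against 1.86% of all genes, and a median of -0.20. Without the libraries against the sex label 0 of 18 were DE, when 34 of 20531 genes were lower in all. Without both libraries high in connective tissue genes 1 was higher and 4 lower, when 1410 and 1182 of 19724 genes were in all. Hmga2, a chromatin protein of young neural stem cells, was at 13.8, 27.1 and 21.8 CPM in AKR/J d15 and at 51.1, 37.7 and 45.8 CPM in Cav1-null d12. Its log2 fold change was -1.14 ± 0.23 in the pair and -0.21 ± 0.24 between AKR/J d17 and Cav1-null d15 (edgeR adjusted p = 0.618). Hmga1, of the same family, was lower in the pair (-1.23 ± 0.17) and also in the later comparison (-1.35 ± 0.09, adjusted p = 4.32e-07). Hmga1b, a gene of similar sequence on chromosome 11, was among the transcripts that mark AKR/J and was nearly absent from Cav1-null, so that the split of reads between it and Hmga1 is uncertain.

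Some genes of synapses were higher in AKR/J d15. Of 40 genes of synapse and neurotransmission, 5 were DE and higher, against 2.34% of all genes, and none was lower, with a median of 0.27. In 24 of the 40 (60.0%) the groups did not overlap, against 28.2% of all genes. The count was 1 of 40 without the libraries against the sex label, 12 without Cav1-null d12 sample 3 and 17 without both libraries high in connective tissue genes, all higher. Over all genes 83 of 20531, 1016 of 20461 and 1410 of 19724 were higher in these settings. Grm5, a metabotropic glutamate receptor, was at 43.7, 38.8 and 47.2 CPM in AKR/J d15 and at 15.7, 15.5 and 15.2 CPM in Cav1-null d12, so that the lowest AKR/J d15 library was far above the highest of Cav1-null d12 (log2 fold change 1.44 ± 0.12). Gabra5, a GABA receptor subunit, was at 15.3, 14.8 and 13.1 against 6.1, 6.98 and 7.9 CPM. Syn2, a synaptic vesicle protein, and Slc12a5, the neuronal chloride exporter, differed by 0.75 ± 0.13 and 0.60 ± 0.13. Camk2b, a calcium-dependent kinase of neurons differed by 0.78 ± 0.11 and was the 1 DE gene among 25 of neurons and cortical layers, which had a median of 0.13. In the later comparison 5 of those 25 were higher and 4 lower, against 8.47% and 6.33% of all genes. In AKR/J d17 against Cav1-null d15, 14 of the 40 synaptic genes were higher and 1 lower (8.47% of all genes were higher), and Grm5 was higher by 0.67 ± 0.08 (edgeR adjusted p = 0.000186).

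Among glial genes, few were DE in the pair. Olig1, a transcription factor of oligodendrocyte precursors, was at 9.29, 9.78 and 10 CPM in AKR/J d15 and at 2.39, 2.58 and 4.08 CPM in Cav1-null d12 (1.65 ± 0.24) and was the 1 DE gene of 14 in its lineage. Between AKR/J d17 and Cav1-null d15 it was higher by 0.97 ± 0.12 (adjusted p = 0.000187), with 5 of 14 genes higher, against 8.47% of all genes, and 0 lower. None of 14 astrocyte genes was DE in the pair, with a median of 0.35, and 7 of the 14 were higher in the later comparison, against the same 8.47%. Without Cav1-null d12 sample 3, 3 of the 14 were higher and 1 lower, when 1016 and 1017 of 20461 genes were in all. Without both libraries high in connective tissue genes 4 were higher and 1 lower, when 1410 and 1182 of 19724 were. P2ry12, a receptor of microglia, was at 9.9, 8.83 and 10.2 against 3.35, 4.89 and 4.73 CPM in the pair, and higher by 1.17 ± 0.14 in the later comparison (adjusted p = 0.00013). It was the 1 DE gene among 15 of microglia and macrophages, which had a median of 0.13. In the later comparison 4 members of 14 were higher and 1 lower, against 8.47% and 6.33% of all genes. The summed expression of the 15 was 105.7, 132.6 and 98.2 CPM in AKR/J d15 and 77.0, 75.5 and 168.8 CPM in Cav1-null d12, highest in sample 3. Fewer cells of a type and less RNA per cell cannot be told apart in these libraries.

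Among genes that were DE in the pair but not between AKR/J d17 and Cav1-null d15, and that also were DE between C57BL/6J d12 and d17 (as were 26.2% of all genes there), those with the largest differences in each direction were named, if their log2 CPM averaged 1 or more and the groups did not overlap. The lncRNA B230209E15Rik was higher by 1.81 ± 0.36. Cdh9, a cadherin of neurons, and Nos1, the neuronal nitric oxide synthase, were both higher by 1.42 in AKR/J d15 (SE 0.30 and 0.29) and rose by 3.11 and 2.30 between d12 and d17 in C57BL/6J (adjusted p = 0.00114 and 0.0404). Tmem132d and Pcdha12 were higher by 1.41 ± 0.28 and 1.29 ± 0.26. These 5 genes differed by 0.11 to 0.51 in the later comparison, which did not pass the test. The 5 lower genes were Hbb-bh1, Kel, Hba-x and Slc4a1, described with blood next, and Grap2, an adaptor of immune cells (-1.97 ± 0.30).

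Embryonic globins were lower in AKR/J d15. Of 14 erythroid genes tested, 7 were DE and all lower, against 1.86% of all genes, with a median of -1.65, and 1 of the 7 is Hba-a2, which was nearly absent from AKR/J libraries at both stages and is described below. Hbb-bh1, an embryonic beta-type globin, was at 4.21, 6.01 and 7.49 CPM in AKR/J d15 and at 39.5, 45.9 and 46.9 CPM in Cav1-null d12 (-2.94 ± 0.22). Hba-x, the embryonic alpha-type globin, was at 27.4, 36 and 56 CPM against 183, 172 and 171 CPM. Hbb-y, a further embryonic globin, was at 782, 1020 and 1630 against 3480, 3120 and 3070 CPM. All AKR/J d15 libraries were below all Cav1-null d12 libraries in these genes. Slc4a1, the anion exchanger of red cells, and Kel, a red cell surface protein, were lower by -2.10 ± 0.16 and -2.30 ± 0.23. The groups overlapped in the adult alpha globin Hba-a1, with 450, 715 and 604 against 558, 491 and 454 CPM. Without the libraries against the sex label 5 of 15 erythroid genes were DE, all lower, against 34 lower of 20531 genes in all. Without those high in connective tissue genes 10 of 14 were lower, against 1182 of 19724. Hbb-bh1, Hba-x and Hbb-y all fell steeply from d12 to d17 in C57BL/6J (adjusted p = 0.0116, 0.00107 and 0.00044), and between AKR/J d17 and Cav1-null d15 they had edgeR adjusted p of 0.704, 0.171 and 0.52. In that comparison 3 of 14 erythroid genes were higher and 1 lower (8.47% and 6.33% of all genes), and the summed expression of 15 erythroid genes was 10190, 3630 and 19330 CPM in AKR/J d17 against 3110 to 3853 CPM in Cav1-null d15. In the pair it was 2157 to 3324 CPM in AKR/J d15 and 4561 to 5549 CPM in Cav1-null d12. The amount of blood in each brain was not measured, and its part in these values was not tested.

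A larger group of genes was different in a way that recurred at the other stage. AKR/J had the later stage position in both comparisons, so that recurrence does not separate strain from stage. Of the 835 DE genes, 663 (79.4%) were DE in the same direction between AKR/J d17 and Cav1-null d15, 388 higher and 275 lower in AKR/J, which is 22.2% of the 2983 DE genes there. None was DE in the opposite direction. Over these 663 genes the log2 fold changes of both comparisons had a Pearson r of 0.973, given as a description across genes that were chosen for the same sign, and differed by a median of 0.28. Of the 663 genes, 601 were tested between C57BL/6J d12 and d17 and 36.8% of these were DE there, as were 43.4% of 152 tested among the other 172 and 25.7% of all genes of the pair tested. Of the 221 DE there among the 663, 196 changed from d12 to d17 in the direction of the pair and 25 in the opposite one. Over all genes of the pair these counts were 4027 and 855.

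The largest differences in this group were transcripts present in 1 strain and absent or nearly absent from the other. Gm10503, a lncRNA on chromosome 17 (31139312 to 31182301), was at 12, 11 and 15 CPM in AKR/J d15 and had no read in Cav1-null d12, which is at least 400-fold higher against 3 reads over the group. Vmn1r43, a vomeronasal receptor gene, was at 6.23, 8.46 and 5.5 CPM and also had no read in Cav1-null d12, at least 212-fold. Gm10503 and Vmn1r43 had 2 reads each in all of Cav1-null d15 and were at 12.2 to 15.5 and 5.77 to 6.87 CPM in AKR/J d17 (edgeR adjusted p = 5.65e-09 and 1.49e-07). Eno1b, a copy of the glycolytic enolase gene, was at 30.7, 33 and 45.5 CPM against 0.0714, 0.0607 and 0 CPM. The converse held for the lncRNA AA388235, on chromosome 17 from 34197396 to 34202217, with no read in any AKR/J d15 library and 9.53, 8.74 and 7.34 CPM in Cav1-null d12, at least 252-fold lower in AKR/J. Gm49980 and Gm32687 had no read in AKR/J d15 and were at 2.1 to 6.42 and 3.68 to 4.19 CPM in Cav1-null d12. Rec8, a cohesin of meiosis, was at 0.875, 0.781 and 0.597 CPM against 9.38, 8.62 and 10.9 CPM (-3.71 ± 0.24, and -4.56 ± 0.26 in the later comparison with an adjusted p of 6.87e-08). Trim12a, of a family of antiviral factors, had 2 reads in AKR/J d15 and 2.15 to 8.08 CPM in Cav1-null d12.

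**Figure D3:**
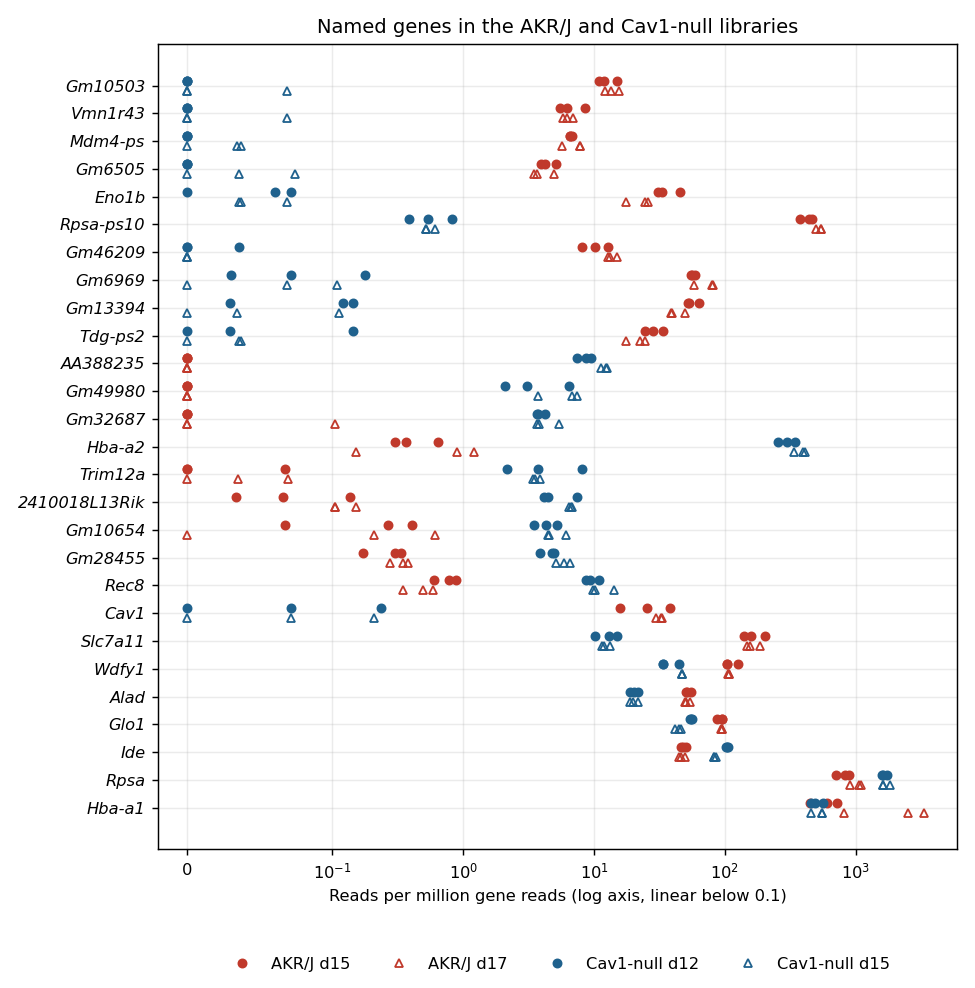
Expression of named genes (CPM, log axis that is linear below 0.1) is plotted for each library, with AKR/J in red, Cav1-null in blue, circles for the pair (AKR/J d15, Cav1-null d12) and triangles for AKR/J d17 and Cav1-null d15. In the upper 10 genes the AKR/J libraries lie far to the right of the Cav1-null libraries at both stages, in the next 9 far to the left, and in Hba-a1 the libraries of the pair overlap.

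Hba-a2, an adult alpha globin gene, was also nearly absent from AKR/J. It was at 0.303, 0.645 and 0.365 CPM in AKR/J d15 and at 342, 296 and 256 CPM in Cav1-null d12 (-9.44 ± 0.26), and at 0.152 to 1.21 against 338 to 408 CPM in AKR/J d17 and Cav1-null d15 (adjusted p = 4.66e-11). Hba-a1 and Hba-a2 lie next to each other on chromosome 11 (32233186 to 32234504 and 32246168 to 32247320), and the coding sequences of both, 426 bases each, differ at 1 base in the reference. The split of their reads is therefore uncertain. Hba-a1 was at 2530, 808 and 3320 CPM in AKR/J d17 and at 453 to 556 CPM in Cav1-null d15, higher by 2.11 ± 0.35 (adjusted p = 0.00126).

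Other protein-coding genes were expressed in both strains at different levels. Slc7a11, the cystine importer of the glutathione pathway, was at 159, 141 and 204 CPM in AKR/J d15 and at 13, 10.1 and 15 CPM in Cav1-null d12 (3.70 ± 0.19). In the later comparison it differed by 3.75 ± 0.10 (adjusted p = 3.6e-11). Slc7a1, a cationic amino acid importer, was higher by 0.88 ± 0.13, and the other 19 genes of the amino acid stress response list were not DE. Among 16 genes known to vary between laboratory strains, 4 were higher and 1 lower, against 2.34% and 1.86% of all genes. Without the libraries against the sex label 2 were higher and 1 lower, when 83 and 34 of 20531 genes were in all. Wdfy1, an adaptor of endosomal signalling, was at 103, 104 and 125 against 33.6, 33.6 and 44.3 CPM. Alad, an enzyme of heme synthesis, was at 51.6, 50.6 and 54.8 against 20.3, 21.8 and 18.9 CPM, and Glo1, which detoxifies methylglyoxal, at 95.6, 95.3 and 86.8 against 55.6, 54.4 and 55.4 CPM. Ide, the insulin-degrading enzyme, was lower, at 46, 47.6 and 50.5 against 106, 104 and 102 CPM. In each of the 4 the groups did not overlap, as in 28.2% of all genes. In AKR/J d17 against Cav1-null d15 these 4 differed by 1.19, 1.37, 1.11 and -0.83 (edgeR adjusted p = 7.68e-08, 2.41e-07, 2.96e-07 and 3.67e-06). Pttg1, which regulates the separation of chromosomes, was higher by 0.94 ± 0.18.

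Of 12 genes of the MHC and antigen presentation tested, 2 were DE and lower in AKR/J d15, against 1.86% of all genes. H2-D1, a class I molecule, was at 2.56, 3.06 and 2.95 against 11.3, 14.7 and 16.5 CPM (-2.35 ± 0.21), and H2-T24 at 1.38, 1.73 and 0.763 against 9.56, 7.74 and 9.35 CPM. Both were lower in the later comparison, by -2.87 ± 0.20 and -2.70 ± 0.22 (adjusted p = 5.41e-07 and 2.32e-06). Class I genes are a family of similar sequences, so that the assignment of reads to single members is uncertain.

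Among the numbered chromosomes and X, the share of tested genes that were DE ranged from 1.84% on chromosome 16 to 7.42% on chromosome 17, and its unevenness was not tested. Within 20 Mb of Cav1, and with Cav1 itself counted, 7 of 171 tested genes were DE (4.09%), near the 4.2% of all genes, with 2 higher and 5 lower. Cav2, the partner of caveolin-1 and its neighbour on chromosome 6 (17281026 to 17289877), was at 7.88, 10.5 and 7.79 CPM in AKR/J d15 and at 19.1, 13.8 and 18.8 CPM in Cav1-null d12 (-1.02 ± 0.19). In the later comparison it differed by -0.40 ± 0.16 (edgeR adjusted p = 0.118). The other genes of this region with the largest differences were Gm15581, Rnps1-ps, 1110019D14Rik and Akr1b8, an aldo-keto reductase that was lower by -1.44 ± 0.21. Cav1, which is null by genotype in Cav1-null, and Cav2 were the 2 DE genes among 10 caveolins and cavins tested.

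Pseudogenes made up 4.43% of the genes tested and 17.5% of the DE genes. Of 882 pseudogenes tested, 146 were DE (16.6%), 121 higher and 25 lower in AKR/J d15, and 115 of them differed by more than 3 on the log2 scale, against 52 of 568 DE protein-coding genes. Some, such as Mdm4-ps and Gm6505 (6.61 and 4.41 CPM in AKR/J d15, 0 in Cav1-null d12), could pass the filter on low counts only through AKR/J d15. These shares are therefore partly set by the filter and are given as a description. Of the 124 that were DE in both comparisons, 120 had a similar transcript among protein-coding genes, and 112 of these alignments had an identity of at least 90%, with a median identity of 99%.

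Rpsa-ps10, a copy of the ribosomal protein gene Rpsa on chromosome 3 (149778295 to 149779179), was among these. It was at 441, 467 and 376 CPM in AKR/J d15 and at 0.535, 0.819 and 0.385 CPM in Cav1-null d12 (9.47 ± 0.25), and it was as far apart in the later comparison (9.91 ± 0.12, adjusted p = 2.3e-14). Over 885 aligned coding bases it differs from Rpsa at 6. Stretches of 100 bases are printed for 4 such copies and their source genes to show how little separates them. They are GRCm39 sequences, 5′ to 3′, with the differing bases in capitals, and each copy is on the minus strand of its chromosome and has a single exon.
Rpsa-ps10, chr3:149778916-149779015: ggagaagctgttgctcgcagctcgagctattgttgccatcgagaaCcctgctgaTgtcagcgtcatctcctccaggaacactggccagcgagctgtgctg
Rpsa, coding bases 165 to 264: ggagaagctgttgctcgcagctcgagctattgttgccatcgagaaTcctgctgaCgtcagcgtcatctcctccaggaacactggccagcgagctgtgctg
Gm8730, chr8:103591966-103592065: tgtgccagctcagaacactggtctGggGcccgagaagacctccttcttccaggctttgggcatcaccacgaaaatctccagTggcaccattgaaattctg
Rplp0, coding bases 366 to 465: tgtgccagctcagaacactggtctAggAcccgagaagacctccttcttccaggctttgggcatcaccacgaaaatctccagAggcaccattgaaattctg
Gm13394, chr2:28824226-28824325: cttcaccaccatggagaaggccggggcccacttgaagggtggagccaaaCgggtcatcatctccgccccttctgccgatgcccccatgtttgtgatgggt
Gapdh, coding bases 297 to 396: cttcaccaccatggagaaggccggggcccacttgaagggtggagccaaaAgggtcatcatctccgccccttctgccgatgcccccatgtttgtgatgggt
Gm15459, chr5:5832957-5833056: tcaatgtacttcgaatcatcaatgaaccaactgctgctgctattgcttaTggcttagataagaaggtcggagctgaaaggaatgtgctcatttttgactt
Hspa8, coding bases 500 to 599: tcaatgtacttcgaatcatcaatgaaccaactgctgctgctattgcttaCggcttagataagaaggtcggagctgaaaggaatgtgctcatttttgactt

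For copies with more reads in AKR/J, the source gene was often lower. The ratios here are of mean CPM. Rpsa was at 834, 885 and 709 CPM in AKR/J d15 and at 1630, 1740 and 1590 CPM in Cav1-null d12. The reads of Rpsa and Rpsa-ps10 together came to 1240 and 1650 CPM, so that a log2 ratio of -1.03 for Rpsa alone became -0.42 for the sum, and -0.73 became -0.13 in the later comparison. Rplp0, also of the ribosome, had a ratio of -0.91 alone and -0.37 with its copies Gm8730 and Gm6278. Hspa8, a constitutive chaperone, had -0.67 alone and -0.36 with Gm15459, and Gapdh, of glycolysis, -0.66 alone and -0.47 with Gm13394. Rps2 had -1.73 alone and -1.07 with Rps2-ps10. Tdg, a DNA glycosylase of demethylation, had -1.40 alone and -0.69 with Tdg-ps2. In these genes the copies took 11.9% to 38.8% of the summed CPM in AKR/J d15. In other source genes the copies changed the ratio little. Rpl29 and Rps18, of the ribosome, had -2.35 and -1.50 alone and -2.25 and -1.47 with their copies, Hmgn2 -1.60 and -1.56, Ublcp1 -0.95 and -0.90, and Mzt1 -0.74 and -0.72.

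Over the 92 source genes of copies that were higher in AKR/J at both stages with an identity of at least 90%, 39 of the 90 tested were DE and lower in the pair (43.3%, against 1.86% of all genes) and 4 were higher. The latter include Eno1b, the match of Gm4735, which is itself a copy of the enolase gene. In AKR/J d17 against Cav1-null d15, 50 of 90 were lower (55.6%, against 6.33%) and 4 were higher. The median log2 ratio of the source genes was -0.49 in the pair and -0.38 in the later comparison. The copies were chosen as higher in AKR/J and had few reads in Cav1-null, so that adding them raises the AKR/J side by construction and the sums are given as a description only. How reads that match both loci were counted is not given in the sources used here, and with sequences this close the values of each locus are uncertain.

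**Figure D4:**
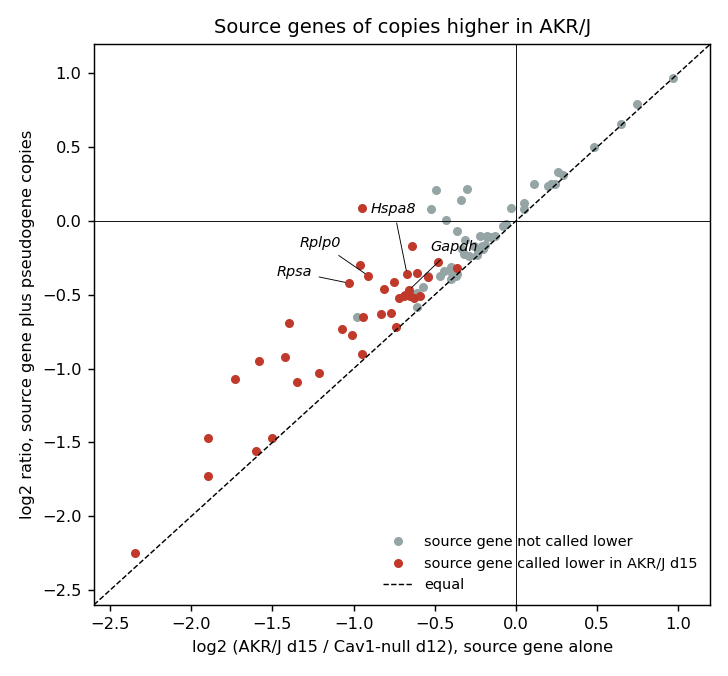
Each point is a source gene, placed by the log2 ratio of its mean expression in AKR/J d15 to that in Cav1-null d12 (horizontal axis) and by the same ratio for the source gene and its pseudogene copies together (vertical axis), with 4 of the 92 genes outside the axes. Rpsa is at -1.03 alone and -0.42 summed, and a shift upward from the dashed line follows from the choice of copies that were higher in AKR/J.

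The other lists had few DE genes. Of 24 genes of the hypoxia response and glycolysis, 3 were DE and lower, against 1.86% of all genes. Of these, Gapdh (404, 381 and 466 against 707, 699 and 564 CPM) is a source gene of a copy given above. Eno1, an enolase, was at 151, 166 and 206 against 261, 255 and 277 CPM. Its values are uncertain, because its copy Eno1b had reads in AKR/J d15 and almost none in Cav1-null d12, and the sum of both was not computed. The other was Higd1a, a mitochondrial protein induced by low oxygen (-0.48 ± 0.08). Of 16 heat shock chaperones, 2 were DE and lower, against the same 1.86%. They were Hspa8 (720, 690 and 745 against 1110, 1290 and 1020 CPM) and Hspe1, a mitochondrial chaperonin (-0.63 ± 0.08). Of 22 genes of cholesterol synthesis, Sc5d and Insig1 were lower by -0.52 ± 0.11 and -0.45 ± 0.09, with a list median of -0.07. Without the libraries against the sex label the hypoxia, chaperone and cholesterol lists had 0 DE genes, when 83 genes were higher and 34 lower of 20531. Without both libraries high in connective tissue genes they had 3, 4 and 4 lower members, and the hypoxia list 2 higher ones. Egr1, an immediate early gene, was the 1 DE member of 17 (1.52 ± 0.32), and Prlr, a hormone receptor, the 1 DE member of 12 choroid plexus genes (1.35 ± 0.28). The remaining 12 lists, which cover neural progenitors, GABAergic neurons, astrocytes, regional patterning, vessels, muscle, connective tissue and others, had no DE gene in edgeR's test. Of their 170 genes tested, 16 had an unadjusted p under 0.05 and DESeq2 called 4, against 4148 and 1939 of all 19890 genes. Several of these lists had calls without Cav1-null d12 sample 3, when 1016 genes were higher and 1017 lower of all 20461 tested. Without it, 11 of 19 genes of GABAergic neurons and 4 of 21 of radial glia and neural progenitors were DE and lower (1 of the latter was higher), and 4 of 20 genes of midbrain, hindbrain and cerebellar patterning were higher. The connective tissue and the epidermis and eye lists still had no call. Without both libraries high in connective tissue genes, when 1410 genes were higher and 1182 lower of 19724, 13 of the 19 GABAergic genes were lower and 6 of the 20 patterning genes were higher and 1 lower. In that setting 3 of 15 connective tissue genes were lower. No count is given for Hox genes under these omissions, because their summed expression was 1.07, 0.303 and 79.2 CPM in the Cav1-null d12 libraries and 13.8, 47.2 and 233.5 CPM in AKR/J d15, so that without sample 3 members could pass the filter on low counts only through AKR/J d15.

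Libraries of C57BL/6J mice were used for the axis of stage and to ask which strain of the pair departs from them. Transcripts that mark AKR/J were not uniform in these libraries. From the transcripts DE in both comparisons, 47 were taken that were at 5 CPM or more in AKR/J d17 and at under 2% of that level in Cav1-null d15, leaving out Cav1, with limits chosen after the data were seen. All 9 AKR/J libraries had all 47 at 10% or more of the AKR/J d17 level and the 9 Cav1-null libraries had none of them, and of these groups only AKR/J d12 and Cav1-null d17 had no part in the choice. The 9 libraries labelled C57BL/6J had 11 to 25 each, at a median of 40.3% to 61.7% of the AKR/J d17 level where present. Of the 47 transcripts, 44 were present in some of these libraries and absent from others and 3 in none. Rpsa-ps10, for example, was at 0.428 to 209 CPM in C57BL/6J d12 and at 0.194 to 0.404 CPM in d17. The part of such transcripts in the stage position was not tested.

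**Figure D5:**
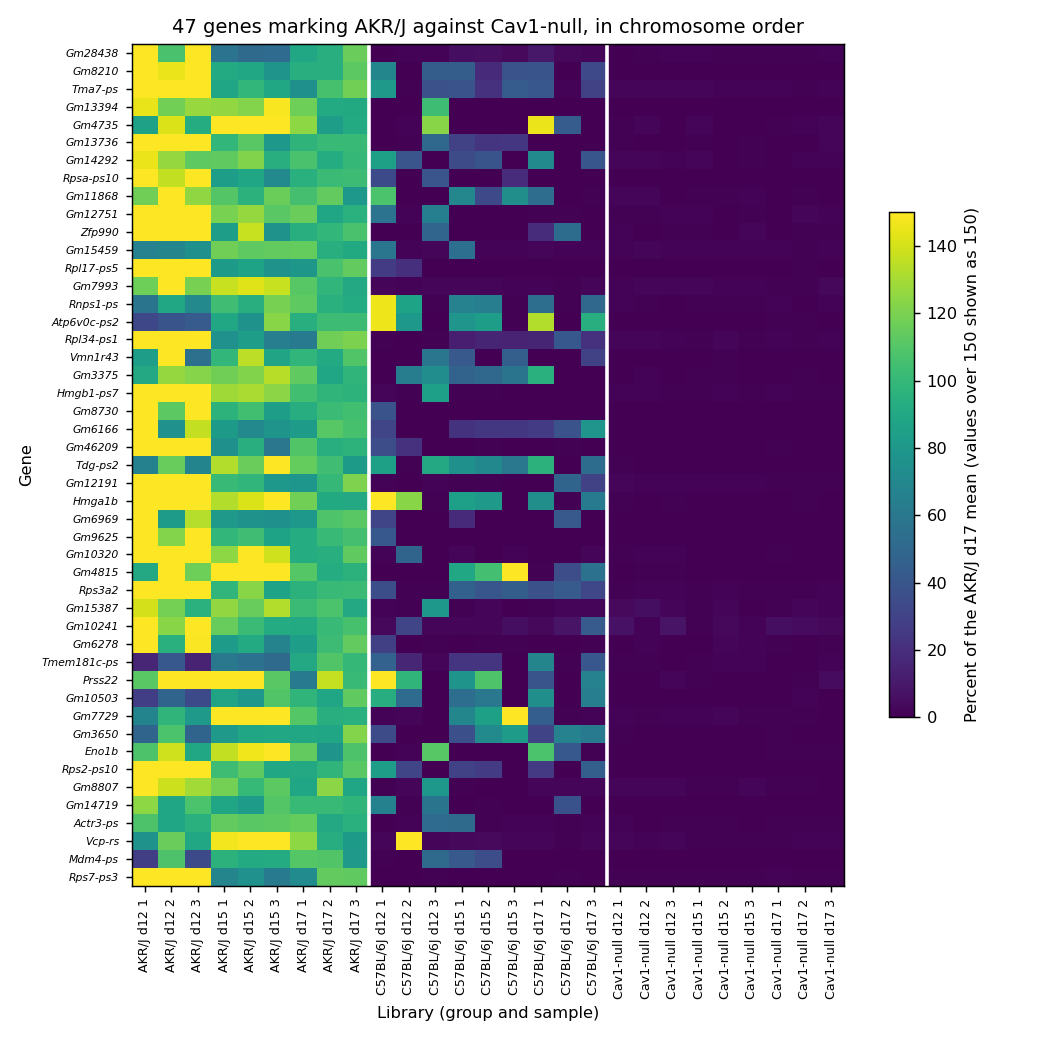
Each row is 1 of 47 transcripts that mark AKR/J against Cav1-null, in chromosome order, each column a library, and the colour the expression in percent of the AKR/J d17 mean (values over 150 drawn as 150). The AKR/J columns are at 10% or more and the Cav1-null columns under 10% throughout, and the C57BL/6J columns hold 11 to 25 of the transcripts each, in different combinations.

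With this limit, both strains were compared with C57BL/6J in 15 libraries outside the pair (AKR/J d17, and C57BL/6J and Cav1-null d15 and d17) fitted with strain and day, where edgeR called 26.7% of genes for AKR/J and 42.6% for Cav1-null. Compared by day, edgeR called 11621 genes between Cav1-null and C57BL/6J on d15 and 10 on d17. In the model of all 27 libraries these counts were 8185 and 15. AKR/J d17 against C57BL/6J d17 gave 150 when fitted alone. The fit with strain and day averages these unlike days, so that its shares do not stand for a strain difference present on each day. Of the 835 DE genes of the pair, 288 differed between AKR/J and C57BL/6J in the direction of the pair, and 419 between Cav1-null and C57BL/6J in the opposite direction. Over all 19890 genes tested in the pair these counts were 1962 and 5930.

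Splice junctions gave a view of the same libraries that is limited by how the table was made, because the authors removed junctions with reads of several matches and a 0 can stand for removed reads. Of 55670 junctions, 106 had at least 10 reads in each AKR/J d15 library and 0 in Cav1-null d12, and 203 the converse. The most abundant of these were not stable between libraries. The junction of Nnat on chromosome 2 (157403214 to 157403461), in an imprinted gene of neurons, had 8182, 6463 and 8680 reads in AKR/J d15 and 0 in Cav1-null d12, but 5142, 5392 and 0 in Cav1-null d15. Eif1, Rbm39 and Pabpc1 behaved alike, with reads in at least 2 of the Cav1-null d15 libraries. Of the 106 junctions, 68 had reads in some other Cav1-null library, and of the 203, 127 in some other AKR/J library.

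Present in all 9 AKR/J libraries and in no Cav1-null library were 23 junctions, and 57 the converse. A junction of Arl8a, a GTPase of lysosome transport, on chromosome 1 (135080605 to 135081913) had 474, 382 and 592 reads in AKR/J d15, 541, 454 and 445 in AKR/J d17 and 0 in every Cav1-null library. In the other direction, a junction of Ppdpf on chromosome 2 (180829530 to 180829601) had 410, 480 and 476 reads in Cav1-null d12 and 0 in all AKR/J libraries, and a junction of Rpl3, a ribosomal protein gene, on chromosome 15 (79965985 to 79966590) had 2625, 3241 and 3557 reads in Cav1-null d12 and 0 in all AKR/J libraries. Rpl3 had 0 reads in 3 of the other 6 Cav1-null libraries. Ppdpf and Rps2, which also had a junction with reads in Cav1-null d12 and none in any AKR/J library, are source genes of the copies Gm14719 and Rps2-ps10.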

How the data were processed

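Polyadenylated RNA of 27 fetal brains was sequenced. The processing notes of the authors name FastQC, cutadapt, fastp and STAR with GRCm39. The counting tool, the strand setting and the handling of reads that match several loci are not given in the sources used here. Read counts per gene and per splice junction were used as deposited by the authors, who left out junctions with multi-mapped reads. GRCm39 derives from C57BL/6J, and the effect of AKR/J sequence differences on mapping was not tested. Tables of the authors' own comparisons were not used, and 0 columns lacked a sample.

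Each comparison was fitted with edgeR 4.0.16 in R 4.3.3 (quasi-likelihood test, filterByExpr, TMM, Benjamini-Hochberg over all genes tested, adjusted p under 0.05) on its own libraries. CPM are counts per 1000000 gene reads. The 27 libraries held 26363697 to 39759702 gene reads. Stage position was a projection of log2(CPM + 1). Of the gene IDs, 98.8% matched GENCODE M39, which gave coordinates and types. Copies were matched to transcripts with BLAST 2.17.0. The fit was also run on simulated counts with known changes. These held no library that stood apart, so that the run does not bear on the libraries of the pair that do.

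Named genes were the checks, the 10 largest differences in each direction among genes DE at both stages, the 5 largest in each direction among genes DE in the pair and with day in C57BL/6J but not in the later comparison, up to 4 DE members of each list, and the DE genes within 20 Mb of Cav1 with the largest differences. Genes of both sets ranked by size had to average a log2 CPM of 1 or more, with groups that did not overlap. Tbr1, Dlx1, En2, Col1a1, Hba-a1, Hbb-y, Glo1, Rpsa, the other source genes and the junctions of the later comparison were named after their values were seen. The members and lists were chosen with earlier results of these data known. Alternatives were DESeq2 1.42.0, other normalizations, filters and models, and libraries left out.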

Additional observations from a re-analysis of the deposited data

Results flagged for a closer look

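The 47 transcripts that mark AKR/J against Cav1-null were also looked for in the C57BL/6J libraries, which are outside the comparison of the pair, and were present there above the level of the Cav1-null libraries, where 0 were present. The C57BL/6J d12 libraries held 25, 14 and 18 of them in samples 1, 2 and 3. The C57BL/6J d15 libraries held 25, 21 and 14, and the C57BL/6J d17 libraries 21, 11 and 19. The cause was not tested.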

How the results depend on the processing

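The 835 DE genes of the pair became 1939 with DESeq2, 1381 with edgeR's likelihood ratio test and 496 with a limit of 1 on the absolute log2 fold change. Without single libraries the count was 267 to 2033, the highest without Cav1-null d12 sample 3. Without the libraries against their sex label it was 117 and without those high in connective tissue genes 2592, both omissions added after seeing the data. Genes DE in both comparisons (663) became 1281, 997 and 336 with the first 3 settings, 257 to 1258 without single libraries, and 112 and 1470 without the libraries named. For AKR/J d17 against Cav1-null d15 (2983) the count was 792 with the fold limit, 674 in the model of 27 libraries and 1894 to 3814 without single libraries, with 1894 and 1954 without AKR/J d17 samples 2 and 3 and 1968 without Cav1-null d15 sample 2. For C57BL/6J d17 against d12 (5170) it was 8806 in that model and 2214 to 5231 without single libraries, lowest without d17 sample 3. AKR/J against C57BL/6J (5847) gave 1514 with the fold limit and 1592 to 9528 without single libraries, namely 1592 and 2148 without AKR/J d17 samples 2 and 3, and 2573 and 9528 without C57BL/6J d17 samples 1 and 2. Cav1-null against C57BL/6J (9336) gave 1650 with the fold limit and 7715 to 11635 without single libraries. The stage gap (0.231) was 0.449 with C57BL/6J d15 as the late end and 0.201 to 0.284 without single libraries. Junctions (309) numbered 867 when 2 of 3 libraries sufficed, 796 when each junction was counted once per transcript, and 523 to 557 without single libraries, where fewer libraries had to pass. Where no cause is named, the cause was not tested. Replicate numbers were not found to pair the samples (correlations of same-numbered deviations 0.366, -0.555 and -0.288 in the pair), and with the replicate block the counts were 224 for the pair, 214 for genes DE in both and 2620 for C57BL/6J. Of the values of named genes under these settings, 1397 for the pair kept their direction and their side of the threshold, 19 passed it newly, 245 no longer passed it and none changed direction. With 3 libraries per group, and with 2 that stand apart, differences that did not pass the test are not shown to be absent.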
